A study of Mus musculus with 6 samples.

Results

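Immediate early genes are the first genes that a cell switches on after a receptor signals, and 10 of them were followed here in mouse thymocytes: Egr1, Egr2, Nr4a1, Fos, Jun, Junb, Jund, Ier2, Dusp1 and Cd69. The members were chosen by gene symbol, and every probe set that the platform annotation gave 1 of these symbols was used. That gave 23 probe sets for 9 of the 10 genes, among 8511 genes named by 1 symbol in the series. No probe set was named Cd69, alone or together with another gene, so no level is given for it. The study compared RNA of CD4+CD8+ double-positive thymocytes from Sox13 transgenic mice with that of wild-type littermates, and its labels put the question as whether ectopic Sox13, a SOX family transcription factor, can impose the molecular program of another T cell lineage. All mice were C57BL/6 females of 6 weeks, and the cells were sorted by flow cytometry from thymocytes pooled from at least 2 mice and lysed directly. Affymetrix arrays were used throughout: the Mu11K pair A and B, each with its own probe sets, in experiment 1, and U74A version 2 in experiment 2. Every one of the 3 array types received 1 sample of each genotype, so the 6 arrays form 2 pairs of sorted samples. The promoter that drives the transgene is not given in the sources used here. Levels are intensities scaled so that each array had a 2% trimmed mean of 500, and a level under a floor of 100 was treated as 100.

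In thymocytes, signals from the T cell receptor and from cytokine and stress receptors reach immediate early genes through Ras, the ERK and other MAP kinases, calcium and NF-kappaB. The factors already present in the cell, such as SRF with its ETS partners at CArG boxes and CREB at cyclic AMP response elements (CREs), then start transcription without new protein synthesis. The products are mostly transcription factors (the EGR, NR4A and AP-1 families) and short-lived inhibitors, and in double-positive thymocytes several of them are known as marks of receptor engagement during selection.

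The sequences just upstream of 4 members are shown because they hold letters that match elements known to carry such signals; a match is a description, not a shown binding site. RefSeq promoter windows on GRCm38.p6 were matched for 7 members (Nr4a1, Egr2, Fos, Jun, Junb, Jund and Dusp1) in 11 windows, 5 of them for Egr2. Only the 250 bases before each start are used. Capitals mark the CRE core TGACG on either strand, the CRE-like element TGCGTCA on either strand, and the CArG box. The windows are Nr4a1 at chr15:101266596-101266845 on the plus strand, Dusp1 at chr17:26508473-26508722 on the minus strand, Fos at chr12:85473640-85473889 on the plus strand and Egr2 at chr10:67537680-67537929 on the plus strand.
Nr4a1: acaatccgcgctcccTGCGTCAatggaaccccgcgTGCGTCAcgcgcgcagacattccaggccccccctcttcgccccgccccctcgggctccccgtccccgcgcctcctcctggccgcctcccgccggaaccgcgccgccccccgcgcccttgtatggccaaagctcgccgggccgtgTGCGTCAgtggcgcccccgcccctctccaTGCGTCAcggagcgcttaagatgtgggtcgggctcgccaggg
Dusp1: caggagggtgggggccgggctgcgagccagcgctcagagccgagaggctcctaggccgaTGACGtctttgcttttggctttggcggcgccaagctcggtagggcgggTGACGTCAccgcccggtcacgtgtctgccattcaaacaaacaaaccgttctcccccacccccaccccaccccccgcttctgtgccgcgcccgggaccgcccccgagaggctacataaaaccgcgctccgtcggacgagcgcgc
Fos: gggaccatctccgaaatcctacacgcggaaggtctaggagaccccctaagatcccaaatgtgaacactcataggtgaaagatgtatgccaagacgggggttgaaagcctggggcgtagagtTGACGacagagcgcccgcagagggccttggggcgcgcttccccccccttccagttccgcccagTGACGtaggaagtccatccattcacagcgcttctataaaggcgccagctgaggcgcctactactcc
Egr2: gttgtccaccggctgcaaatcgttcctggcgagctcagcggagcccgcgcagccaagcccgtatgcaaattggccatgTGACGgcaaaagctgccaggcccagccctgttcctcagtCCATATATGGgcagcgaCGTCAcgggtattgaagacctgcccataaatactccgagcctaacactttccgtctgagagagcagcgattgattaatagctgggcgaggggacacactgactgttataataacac

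The Nr4a1 window held 4 copies of TGCGTCA, an element found in 1.75% of the 32851 windows of the same length. Each copy also contains the core read on the other strand (CGTCA). The Dusp1 window held 1 full CRE, TGACGTCA, which 1.55% of all windows hold, and the cores within it, which overlap, are counted among its 3 core matches. The core alone occurred in 17.8% of all windows, with 2 matches in the Fos window, 2 in the Egr2 window shown, 1 in that of Junb and 0 in those of Jun and Jund. A CArG box, found in 1.47% of all windows, lay in 4 of the 5 Egr2 windows, but 3 of these windows overlap and hold the same box, so there were 2 distinct boxes. The GC box GGGCGG, present on either strand in 32.7% of all windows, occurred 3 times in the Nr4a1 window and 3 times in the Dusp1 window. The SOX core AACAAT (9.42% of all windows) and the AP-1 site TGANTCA (6.75%) had 0 matches in the 11 windows, which says only that these letters are not in the 250 bases searched.

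Sox13 itself was read first, as a check of the labels. Its Mu11K A probe set read 5951 (transgenic) and 27.4 (wild type, under the floor), which is at least 59.5-fold higher. On the U74A array it read 3832 against 599.6, or 6.39-fold higher, so the wild-type level there was above the floor although the labels describe these cells as lacking endogenous Sox13. Averaged over the experiments, its log2 ratio came to 4.29 ± 0.56 (limma SE, n = 2 experiments; Benjamini-Hochberg adjusted p = 0.00543). The labelled cell type was also readable: Cd4 read 7854 and 7876 in experiment 1 (transgenic, then wild type) and 5040 and 6496 in experiment 2, and all 9 Mu11K probe sets of a double-positive marker list were above the floor in both samples. In experiment 1, however, 2 of the 9 tested genes of that list were higher in the transgenic sample and the median log2 ratio was -0.27, against -0.03 in experiment 2. Over all genes measured in both experiments, 46.9% were higher in experiment 1. Rag2, needed for receptor gene rearrangement, read 459.8 against 1871 in experiment 1 and 2119 against 2008 in experiment 2, and Cd1d1 read 308.3 against 669.2 and 1315 against 1360. Limma called 0 of the 9 (1, Rag2, at an unadjusted p under 0.05), and the part of these differences in the members' ratios was not tested.

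None of the 8 immediate early genes tested passed the test across both experiments. The largest differences were those of Nr4a1, with 2.96-fold more signal in the transgenic sample of experiment 1 and 1.09-fold more in experiment 2, and of Junb, with 2.25-fold more in experiment 1 and 1.13-fold less in experiment 2. Jund and Ier2 were also brighter in the transgenic sample of both experiments, Egr1 and Egr2 dimmer in both, and Fos and Dusp1 dimmer in experiment 1 and brighter in experiment 2. Of the 8 members that could be tested, limma called 0 higher and 0 lower at an adjusted p under 0.05, where it called 0.154% of the 3237 genes measured in both experiments higher and 0 lower. At an unadjusted p under 0.05 the count was 1 of 8 members (Nr4a1) and 208 of 3237 genes. The members' adjusted p ran from 0.774 to 0.992. Each ratio compares 1 pooled sort with another, so no p-value here measures variation between mice. The limma SE rests mostly on a variance shared over all genes: the 2 ratios of Egr2 differed by 0.02, yet its SE was 0.34. Fewer cells of a type cannot be told apart from less RNA per cell in such bulk samples.

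**Figure D1:**
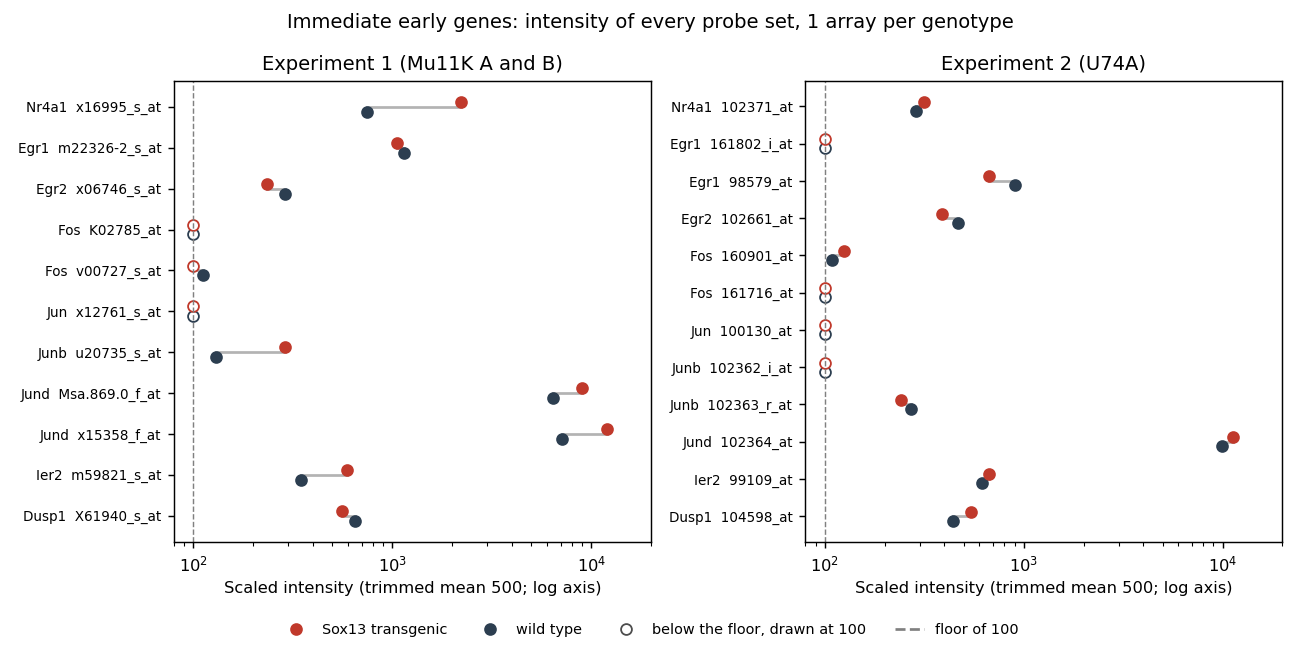
Scaled intensity (log axis) of every probe set of the 9 members with one, by genotype and experiment; each point is 1 array, lines join the 2 arrays of a pair, and open points lie below the floor of 100 and are drawn there. Nr4a1 stood at 2214 against 749.1 in experiment 1 and at 315.1 against 287.9 in experiment 2, and Jun lay below the floor on every array.

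Egr1 and Egr2 are zinc finger transcription factors induced through the ERK pathway, and both act in thymocyte selection. Egr1 read 1057 in the transgenic sample and 1143 in the wild type on Mu11K A, and 673.7 against 902.6 with the main U74A probe set. The transgenic sample was thus the lower one in both pairs, by 1.08-fold and 1.34-fold, and 8.99% of the U74A probe sets measured had a ratio at least as low as the second of these (-0.42 on the log2 scale). Another U74A probe set for Egr1, of the kind marked as incomplete, read 7.04 and 34.4, both below the floor. For Egr1 the average log2 ratio was -0.27 ± 0.34 (limma SE, n = 2 experiments; 95% interval -1.002 to 0.47; adjusted p = 0.914). Under scaling to a common median, the experiment 1 ratio of Egr1 was 0.07 and not -0.11.

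Egr2 read 234.2 against 287.6 on Mu11K B and 387 against 467.6 on U74A. The wild type was the brighter sample in both pairs, by 1.23-fold and 1.21-fold, and of all the members Egr2 had the closest ratios in the 2 experiments (log2 ratios -0.30 and -0.27). Across both pairs Egr2 averaged -0.28 ± 0.34 on the log2 scale (limma SE, n = 2 experiments; 95% interval -1.01 to 0.44; adjusted p = 0.902). Its ratio in experiment 1 turned to 0.03 under quantile normalization and to 0.06 under loess normalization, which brought the mean to -0.11 and -0.09.

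Nr4a1, also called Nur77, encodes an orphan nuclear receptor whose transcript follows T cell receptor signal strength and which acts in the death of thymocytes under negative selection. On Mu11K B it read 2214 in the transgenic sample and 749.1 in the wild type, and on U74A 315.1 and 287.9. The transgenic sample was higher in both pairs, but by very different amounts, with log2 ratios of 1.56 and 0.13. Of the 3577 Mu11K B probe sets measured, 80 (2.24%) had a ratio at least as high as that of Nr4a1, whereas in experiment 2 28.6% of the U74A probe sets did. Both probe sets were designed from the same database sequence. Averaged over both pairs, its log2 ratio was 0.85 ± 0.39 (limma SE, n = 2 experiments; 95% interval 0.0019 to 1.69; unadjusted p = 0.0496, adjusted p = 0.774). Over the alternatives run as a paired test, the mean stayed between 0.85 and 0.94 and the adjusted p between 0.452 and 0.865. Similar pairs of ratios were looked for among 2619 genes whose probe sets kept in the ratios all exceeded the floor in both samples. The 5 genes with the most similar pair were Rasl11b, Tmem97, Nfkbib, Zfpm1 and Pak4. Their distance from Nr4a1 over the 2 log2 ratios ran from 0.0819 to 0.117, a likeness over 2 values only.

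**Figure D2:**
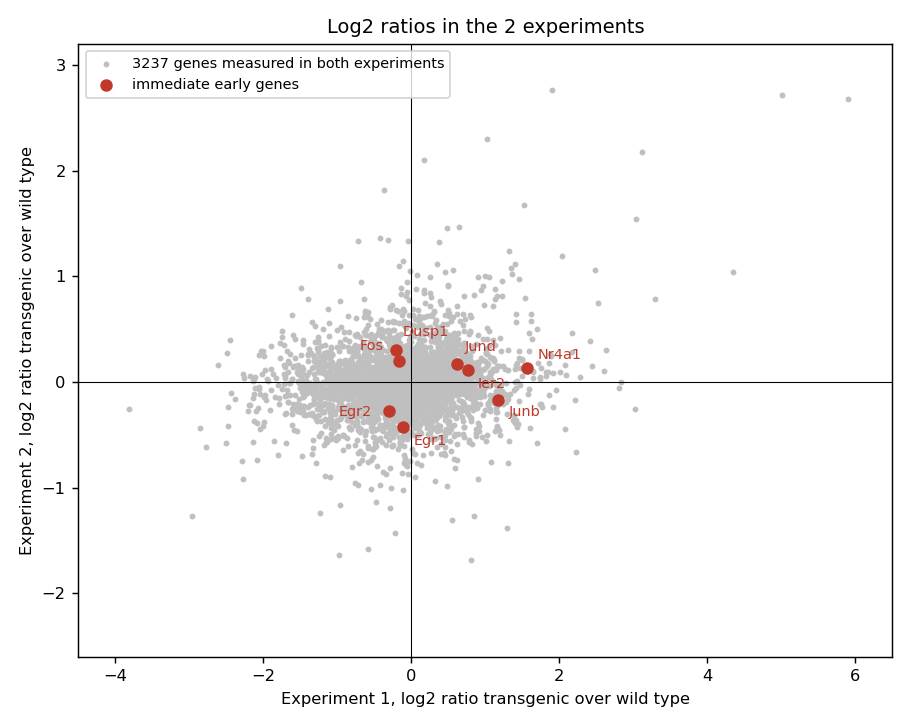
Log2 ratio of transgenic over wild type in experiment 1 (horizontal axis) against experiment 2 (vertical axis) for the 3237 genes measured in both, with the 8 tested members in red. Nr4a1 (1.56 and 0.13) and Junb (1.17 and -0.17) lie farthest to the right of the members, and the members' ratios in experiment 2 span -0.42 to 0.30.

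Fos, Jun, Junb and Jund encode subunits of the dimeric transcription factor AP-1, in which a FOS protein pairs with a JUN protein or JUN proteins pair with each other. Fos was close to the floor throughout. One Mu11K B probe set read -7.47 in the transgenic sample and 112.3 in the wild type, at least 1.12-fold lower, and the other read -4.59 and -23.2. On U74A one probe set read 124.6 against 108.2 (1.15-fold higher) and the other 31.4 and 27, so the sample that was brighter changed with the experiment. The average log2 ratio of Fos, which includes the bound, was 0.02 ± 0.34 (limma SE, n = 2 experiments; 95% interval -0.72 to 0.75; adjusted p = 0.992), and it was -0.48 with a floor of 50. Jun, the founding JUN member, gave 48.7 and 42.9 (Mu11K B) and 46.1 and 43.7 (U74A), below the floor on every array, and was not tested.

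Junb, which in many settings opposes Jun, read 290.1 in the transgenic sample and 129.1 in the wild type on Mu11K A. In that array pair, 122 of 3882 probe sets (3.14%) had a log2 ratio at least as high as its 1.17. On U74A the probe set with rules dropped in its design read 242.1 against 272.6, a log2 ratio of -0.17, and a second one, marked incomplete, read 81.1 and 31, both below the floor. The 2 experiments thus went opposite ways for Junb, with the sign in experiment 2 resting on the first of these U74A probe sets alone. Junb averaged 0.50 ± 0.39 on the log2 scale (limma SE, n = 2 experiments; 95% interval -0.33 to 1.33; adjusted p = 0.877), and 0.18 with a floor of 200, which lies above its wild-type level in experiment 1. With a floor of 50 the probe set marked incomplete, brighter in the transgenic sample, also counted. Junb was then higher in both experiments, with an average of 0.72.

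Jund, the JUN member that many cells express without a stimulus, was far above the floor on every array. Its 2 Mu11K B probe sets, both of the kind that can detect a sequence family, read 8979 against 6385 and 11929 against 7141, and its U74A probe set read 11221 against 9947. The transgenic sample was higher in all 3 comparisons, by 1.41-fold, 1.67-fold and 1.13-fold. Jund averaged 0.39 ± 0.34 on the log2 scale (limma SE, n = 2 experiments; 95% interval -0.35 to 1.14; adjusted p = 0.882).

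Ier2 encodes a small nuclear protein induced in the same first wave. It read 592.8 in the transgenic sample and 348 in the wild type on Mu11K A, and 667.5 against 617.5 on U74A. The transgenic sample was higher in both pairs, by 1.70-fold and 1.08-fold, and 293 of 3882 Mu11K A probe sets (7.55%) had a ratio at least as high as the first. Ier2 averaged 0.44 ± 0.35 on the log2 scale (limma SE, n = 2 experiments; 95% interval -0.31 to 1.20; adjusted p = 0.878).

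Dusp1 encodes a nuclear phosphatase that switches off MAP kinases and so limits the response that induced it. It read 560.7 against 649.3 on Mu11K B, 1.16-fold lower in the transgenic sample, and 543.9 against 441.2 on U74A, 1.23-fold higher. Dusp1 averaged 0.05 ± 0.35 on the log2 scale (limma SE, n = 2 experiments; 95% interval -0.70 to 0.79; adjusted p = 0.986). For 6 members (Nr4a1, Fos, Jun, Junb, Ier2 and Dusp1) a probe set of each experiment was designed from the same database sequence.

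As a group the members went no single way. Of the 8 tested, 3 were higher in both experiments, 2 lower in both and 3 opposite, beside 23.9% higher in both and 30.4% lower in both over the 3237 genes. That split moved with the processing. In experiment 1 Egr1 turned to 0.07 under median scaling, and Egr2 to 0.03 under quantile and 0.06 under loess normalization. With a floor of 50, Junb was higher in both experiments. The members' medians on the log2 scale were 0.25 (experiment 1) and 0.12 (experiment 2), and those of all genes -0.05 and -0.02. The experiment 1 value moved with the processing, to 0 with no filter on low values, 0.43 with median scaling, 0.53 with quantile normalization, 0.54 with a floor of 200 and 0.62 with probe sets above the floor on both arrays. The ratios of experiment 1 were spread more widely than those of experiment 2 over all genes, with SDs of 0.78 and 0.33. Under quantile normalization and median scaling, the median of all genes in experiment 1 moved from -0.05 to 0.06 and 0.12. The members' values there are to be read beside that shift. The members tested also changed with the setting. Fos dropped out, leaving 7, under quantile normalization, with a floor of 200 and with probe sets above the floor on both arrays. With no filter 9 were tested, Jun among them. The 8 tested in the main setting are the members that passed the floor, not all 10.

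Within an array type, 17 of the 23 member probe sets were above the floor on at least 1 array. On Mu11K A, 1 of 3 (Junb) was at least 2-fold higher and 0 lower, where 4.56% of all measured probe sets were higher and 11.7% lower. On Mu11K B, 1 of 6 (Nr4a1) was at least 2-fold higher and 0 lower, where the shares were 6.15% and 13.9%. On U74A the count was 0 of 8 in either direction, where 0.971% were higher and 0.563% lower. Higher probe sets made up 28.0% of the 2-fold differences on Mu11K A and 30.6% on Mu11K B, but 43.1% and 46.7% after quantile normalization, 43.1% and 44.4% after median scaling and 40.7% and 44.3% after loess normalization. With 1 array per genotype these counts carry no test.

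Gene length moved with the experiment 1 ratios. With the genes split by length into 4 groups of 808, the shortest genes (320 to 8813 bases) had a median log2 ratio of 0.21 in experiment 1 and the longest -0.36, while in experiment 2 the medians were 0.02 and -0.04. Immediate early genes are short, and 7 of the 8 tested members were in the shortest group. The median of those 7 was -0.11 in experiment 1 and 0.11 in experiment 2, beside 0.21 and 0.02 for the other 801 genes of that group. In the shortest group, 5.82% of genes had an experiment 1 ratio at least as high as Junb, 13.6% as Ier2 and 20.2% as Jund. Nr4a1, which the annotation gives as 20.9 kb long, was in the third group, whose median was -0.21, and 1.49% of the genes there had a ratio at least as high. The 3′ to 5′ signal ratio of the control transcripts, a sign of RNA and labelling quality, was 1.18 in the transgenic and 0.870 in the wild-type sample for Gapdh on Mu11K B and 1.08 and 1.32 for Actb. On U74A it was 0.766 and 0.792 for Gapdh and 1.36 and 1.58 for Actb. On Mu11K A, which carries the experiment 1 probe sets of Egr1, Junb and Ier2, no comparison could be made. The wild-type control values are missing there, and the transgenic ratios were 1.00 for Gapdh and 1.09 for Actb. The part of length and of RNA quality in the members' ratios was not tested.

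**Figure D3:**
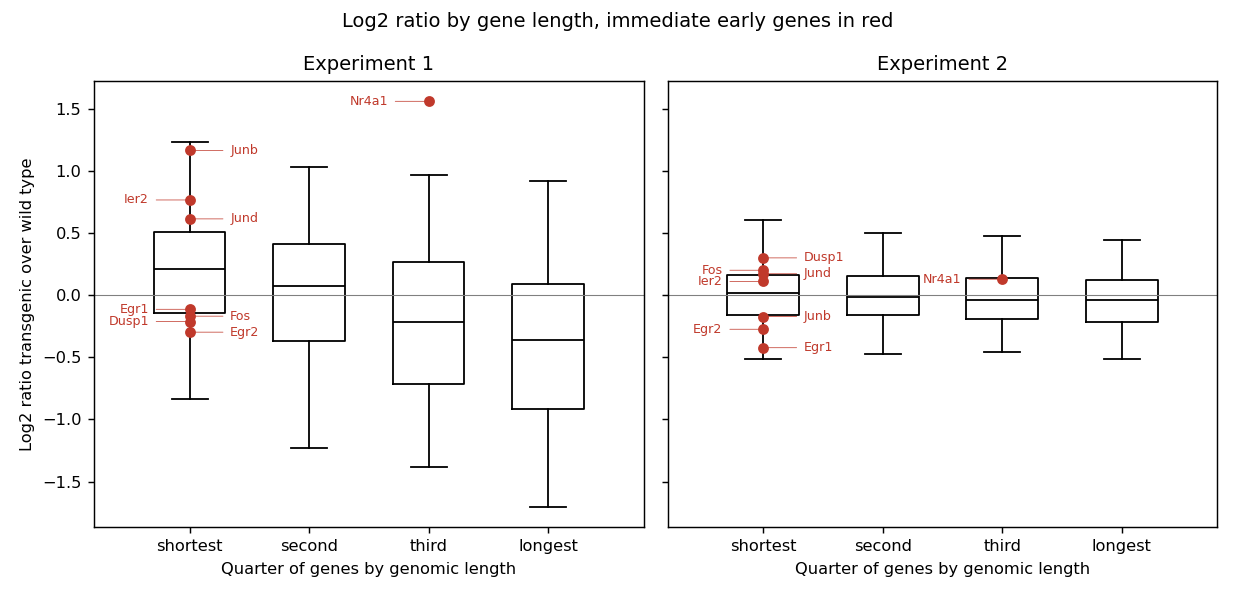
Log2 ratio of transgenic over wild type for 4 groups of genes by length in each experiment; boxes span the quartiles with the median as a line, whiskers run from the 5th to the 95th percentile, and the 8 tested members are in red. In experiment 1 the medians go from 0.21 in the shortest group to -0.36 in the longest, with Nr4a1 at 1.56 in the third group, and in experiment 2 from 0.02 to -0.04.

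Marker genes of other cells that a sort could hold were read beside the members. The list counts here and below stand beside those over all 3237 genes. Of these, 23.9% were higher in both experiments and 30.4% lower in both, and limma gave 208 an unadjusted p under 0.05. For a list of 10 mature single-positive thymocyte genes, the level summed over probe sets was 20865 in the transgenic and 8098 in the wild-type sample of experiment 1, and 20002 and 15894 in experiment 2. Of its 5 tested genes, 4 were higher in both experiments and 0 lower in both, and limma called 0 (3 at an unadjusted p under 0.05). Its MHC class I genes H2-D1 and H2-K1 made up 15177 and 5107 of the sum in experiment 1 and 12120 and 8014 in experiment 2. Of the defining markers, S1pr1 was below the floor wherever measured, Il7r reached 102.6 in the transgenic sample on U74A and was otherwise below it, and Ccr7 and Klf2 were below it on U74A. On Mu11K A, Ccr7 read 189.7 against 92.4 and Klf2 481.8 against 302.6. The B cell list of 11 genes summed to 31594 and 19068 in experiment 1 and to 18860 and 16554 in experiment 2, with 4 of 6 tested genes higher in both and 0 called by limma (3 at an unadjusted p under 0.05: H2-Aa, H2-Ab1 and Cd74, MHC class II genes that other cells also express). Of its defining members, Cd22 was below the floor on every array that carries it and Cd79a on the Mu11K array, with 177.3 and 100.6 on U74A. Pax5 was below the floor on the Mu11K array, and a U74A probe set of Pax5 read 173.1 against 191.1. Others exceeded the floor in both experiments with at least 1 probe set. Ighm had log2 ratios of 0.41 and 0.48, Cd79b 0.58 and -0.23, and Ms4a1 -0.14 and 0.83, the last a bound. The brightest Ighm probe set of experiment 1 read 13180 against 9859. The myeloid list of 13 genes summed to 3518 and 3609 in experiment 1 and to 1903 and 1290 in experiment 2, with Adgre1 and Itgam below the floor wherever measured. Other myeloid genes exceeded it. Among the 4 tested, limma called 0, with 1 (Ctss) higher in both experiments, 1 lower in both and 2 opposite. Ctss read 404.1 against 162 in experiment 1 and 570.3 against 241 in experiment 2 (log2 ratios of 1.32 and 1.24). Lyz2 read 1627 against 2024, then 255 against 54.5, the last below the floor. The erythroid list of 9 genes summed to 3391 and 1150, then 2347 and 885, with Alas2 below the floor. Limma called 2 of its 4 tested genes, the globins Hba-a1 and Hbb-b2, higher, while Car2 (at bounds of -0.98 and -1.64; unadjusted p = 0.0024) and Gata1 (bounds of -0.52 and -0.07) were dimmer in both experiments and were not called. Of the 2 Hba-a1 probe sets on Mu11K B, 1 read 1862 against 131 and the other 299.4 against 305.5. The U74A ratio of Hbb-b2 is a bound, because its wild-type level there was 15.1. The NK cell list of 9 genes summed to 8690 and 1612, then 1547 and 813, and Gzma alone read 8604 and 1535, then 1262 and 605.2. Of the 8 NK genes with a probe set, 6, Gzmb among them, were above the floor on no array, and Il2rb read 69.6 against 119.5 on U74A. The stromal and epithelial list of 10 genes summed to 1348 and 2714, then 1171 and 1517, with Krt8 below the floor. Other genes of that list exceeded it. Vim read 927.1 against 2274 on Mu11K B and was below the floor on U74A, where a Col1a2 probe set read 750.6 against 1113. Foxn1 read 117 against 70.5 on Mu11K B, the latter below the floor. Col1a1, the only gene tested, had log2 ratios of -0.21, a bound, and -0.02, and limma did not call it. The part of these cells in the members' ratios was not tested.

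The route that leads from the receptor to these genes gave 0 calls as well. Of 26 genes of the Ras, ERK and SRF route, 10 were tested, and limma called 0 (0 at an unadjusted p under 0.05), with 1 higher in both experiments, 3 lower in both and medians of -0.10 and -0.07. The kinase gene Map2k1 had log2 ratios of 0.67 and 0.29, Map2k2 0.65 and -0.08, and the small GTPase gene Nras -0.59 and 0.10. Elk3, an ETS partner of SRF, was at -1.22 and -0.02, and Creb1, the CRE-binding factor, at -1.15 and -0.14. For Nras and Creb1 the experiment 1 value includes 1 probe set at a bound. Of 13 NFAT and NF-kappaB genes, 5 were tested and limma called 0 (1 at an unadjusted p under 0.05), with 3 lower in both and 0 higher in both. Nfatc3, a calcium-regulated factor, was at -1.69 and -0.12 and Nfatc2 at -0.15 and -0.53. Ikbkg, a subunit of the kinase that frees NF-kappaB, was at -0.78 and -0.17, while Relb was at 1.01 and -0.56 and Rela at 0.26 and -0.12.

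The genes that restrain receptor signals, alongside Dusp1, were the most fully measured of the related lists. Of 23 feedback inhibitors, 15 were tested and limma called 0 (1 at an unadjusted p under 0.05), with 3 higher in both experiments, 6 lower in both, 6 opposite and medians of 0.17 and -0.07. Tnfaip3, an NF-kappaB inhibitor, read 105 against 585.6 on Mu11K B and 808.5 against 951.5 on U74A, and its log2 ratio averaged -1.36 ± 0.46 (limma SE, n = 2 experiments; adjusted p = 0.648). The wild-type sample was the brighter one in both pairs, with log2 ratios of -2.48 and -0.23. Dusp6, which inactivates ERK, was at -0.49 and -0.58, and Dusp2, a nuclear relative, at 0.74 and 0.07. Zfp36, which speeds the decay of cytokine transcripts, was at 0.74 and 0.17 and its relative Zfp36l2 at -0.74 and -0.07.

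Few of the other early genes could be tested in both experiments. Of 30 genes, 23 had a probe set, 8 of these were above the floor on no array and 10 in 1 experiment only, which left 5 tested and 0 called by limma (0 at an unadjusted p under 0.05). The 5 had medians of -0.28 and 0.13, and 4 went opposite ways. Myc read 244 against 77.9 in experiment 1, at least 2.44-fold higher, and 114.9 against 141.8 in experiment 2. Klf10 was at -0.62 and 0.45, Rgs2 at -0.34 and 0.16, Gadd45a at -0.28 and 0.13 and Fosl2 at -0.02 and -0.13, the latter a bound. Of 14 genes for AP-1 partners, 7 were tested and limma called 0 (2 at an unadjusted p under 0.05). Atf2, which pairs with JUN proteins, was at -1.79, a bound because its transgenic level was below the floor, and -0.21. Mafg, a small MAF protein, was at bounds of 1.31 and 0.30 because its wild-type levels were below the floor. Its relative Mafk was at 0.51, also a bound for that reason, and -0.02, and Atf4 at -0.24 and 0.12.

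**Figure D4:**
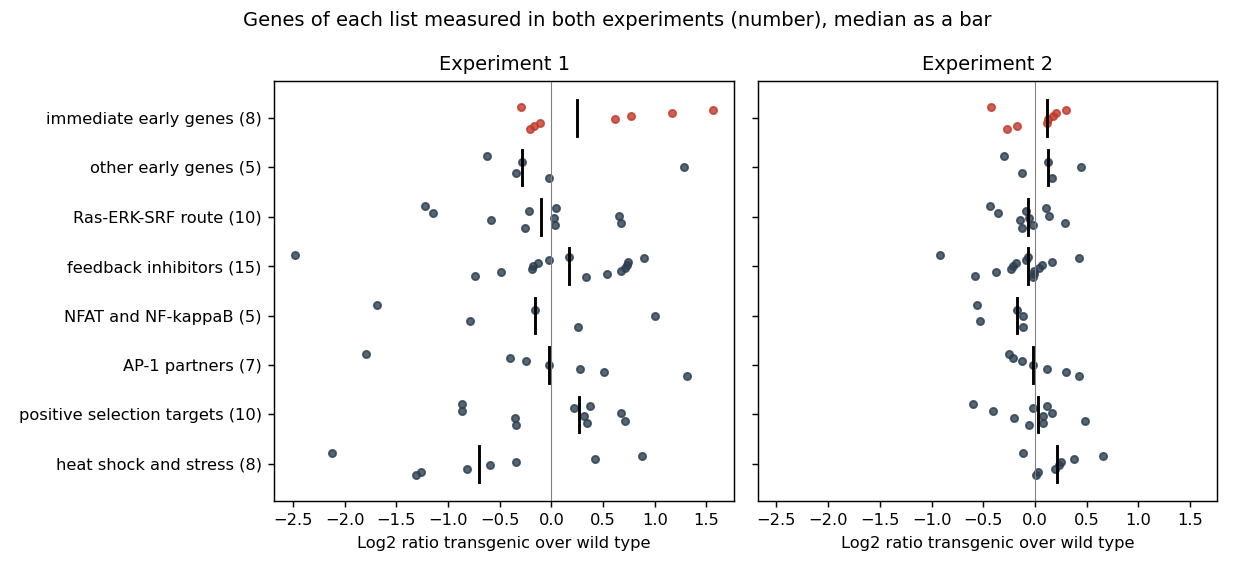
Log2 ratio of transgenic over wild type in each experiment for the tested genes of the members and of each related list; each point is 1 gene and each bar a list's median. The members' medians are 0.25 and 0.12, and the heat shock list has the lowest median in experiment 1, -0.70, and 0.21 in experiment 2.

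Genes that selection signals alter in thymocytes were measured as well. Of 20, 10 were tested and limma called 0 (0 at an unadjusted p under 0.05), with 3 higher in both experiments, 2 lower in both and medians of 0.27 and 0.03. Cd53, a tetraspanin, was at 0.72 and 0.49, and Gfi1, a transcriptional repressor, at -0.35 and -0.60. Cd5, a surface inhibitor whose level follows receptor signal strength, was at 0.68 and -0.02, Itm2a at -0.86 and 0.08 and Ets1 at -0.87 and 0.12. Of 15 heat shock and dissociation stress genes, which cell handling can raise together with immediate early genes, 8 were tested and limma called 0 (1 at an unadjusted p under 0.05). In experiment 1, 2 of these 8 were higher in the transgenic sample, and in experiment 2, 7 of 8 were, beside 46.9% and 46.6% of all genes. Dnaja1 was at -2.12 and -0.12, Hsph1 at -1.31 and 0.24, Hsp90aa1 at -1.26 and 0.38, Hspa5 at -0.81 and 0.03 and Dnajb1 at 0.88 and 0.19. Of the 12 genes of this list with a probe set, 4 (Hspa1a, Hspa1b, Hspb1 and Atf3) were above the floor on no array and gave no ratio. The part of handling in the members' ratios was not tested.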

How the data were processed

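The deposited values were intensities, 1 per probe set, made by the authors with Microarray Analysis Software versions 4 and 5 per the series text, and MAS5 is named for the U74A pair per the submitters' processing notes. The version behind each Mu11K array is not given in the sources used here. Control probe sets were left out (55 per Mu11K array, 66 on U74A), as were 21 more on Mu11K A lacking a wild-type entry. Scaling set every array's 2% trimmed mean to 500; values were then floored at 100 and log2 transformed, with no pseudocount. Genes were named from probe sets with 1 symbol in the platform annotation, and a gene's ratio in an experiment averaged its probe sets that exceeded the floor in either sample. A fold against a level under the floor is a bound.

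The test was limma (version 3.58.1, R 4.3.3) on the 2 log2 ratios per gene, a two-sided test of the intercept against 0 with p-values adjusted by Benjamini-Hochberg over 3237 genes and a threshold of 0.05. The code was tried on simulated data with planted log2 differences larger than the mean of any member. That trial therefore cannot say how well differences of the members' size would be found. The shared prior had 12.1 degrees of freedom. The array type pairs each transgenic with its wild-type array. Between 46.9% and 57.4% of an array's probe sets lay above the floor, and the number of arrays limits the precision. Gene lengths and the 250-base upstream windows came from RefSeq on GRCm38.p6, with lengths for 3232 genes.

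The members and gene lists were chosen with earlier results of these data known. All members were named, with Sox13, up to 5 genes of each related list with the largest absolute mean log2 ratio, 5 genes nearest to Nr4a1 and defining markers. Alternatives were floors of 50 and 200, quantile, median and loess normalization, filters, the brightest probe set, an unpaired fit and leaving out an experiment.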

Additional observations from a re-analysis of the deposited data

Results flagged for a closer look

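In 3 members the 2 experiments went opposite ways, and the difference between experiments was not tested in any of them. Junb had a log2 ratio of 1.17 in experiment 1 and -0.17 in experiment 2, a difference of 1.34. With a floor of 50, which lets another U74A probe set of Junb count, it was higher in both experiments. For Dusp1 the ratios were -0.21 and 0.30, a difference of -0.51. For Fos they were -0.17, a bound, and 0.20, a difference of -0.37.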

How the results depend on the processing

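Limma called 0 of the members tested under every alternative run as a test, with 7 to 9 members tested. Over all genes the count of calls was 5, and it was 0 with a floor of 50, 15 with quantile normalization, 27 with median scaling, 12 with loess, 0 with no filter on low values, 2 with probe sets above the floor on both arrays, 1 with the brightest probe set and 0 without the replicate block, in an unpaired fit. The members' median in experiment 1, 0.25, was 0.54 with a floor of 200, 0.53 with quantile normalization, 0.43 with median scaling, 0 with no filter and 0.62 above the floor on both arrays. The count of U74A probe sets at least 2-fold higher, 69, was 156 with a floor of 50 and 34 with a floor of 200, and the count lower, 40, was 133 and 13. With a floor of 200, the counts lower on Mu11K A and B, 455 and 498, were 290 and 307. The mean log2 ratio of Fos was -0.48 with a floor of 50, and that of Junb was 0.72. With 1 experiment left out, the value for Junb was -0.17 or 1.17, for Fos -0.17 or 0.20 and for Dusp1 -0.21 or 0.30, and no test could be fitted to the single ratio. Except where an alternative's own construction shows it, the cause was not tested. Signal near the floor limits Fos, Junb and Jun.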

Other observations

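Among the genes beside the members, Socs3, a cytokine signaling inhibitor held in the mature single-positive list and named after its values were seen, read 1276 in the transgenic and 130.5 in the wild-type sample on Mu11K A. Its 2 U74A probe sets read 442.7 against 325.1 and 597 against 273, so all 3 were higher in the transgenic sample. On average its log2 ratio came to 2.04 ± 0.48 (limma SE, n = 2 experiments; adjusted p = 0.267), which did not pass the test. Of the other early genes, 7 were above the floor on U74A only, and all 7 are given here, also named after their values were seen. In the transgenic sample 3 were brighter: Klf6 read 880.4 against 709.8, Fosb 201.2 against 186.5 and Irf4 149.9 against 71, the last below the floor. The other 4 were dimmer: Plk3 read 3929 against 4202, Plk2 177.7 against 185.1, Crem 136 against 182.5 and Icos 121.9 against 131.8. Tnfrsf9, Cd83 and Gadd45b were above the floor on the Mu11K arrays only, and all were brighter in the transgenic sample. Tnfrsf9 read 378.2 against 196.1, Cd83 102.3 against 25, the latter below the floor, and Gadd45b 205.1 against 203.1.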
